A study of Homo sapiens with 4 samples.

Results

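The Wnt pathway genes described here are 40 of the 20283 genes that the authors' deposited table of ratios names, taken as every probe set whose gene symbol is a Wnt ligand or its acyltransferase, a receptor, a component of the beta-catenin destruction complex, a TCF/LEF factor or an established target gene. They had 89 probe sets, the groups of short oligonucleotides that an Affymetrix array reports as 1 value. Levels on all arrays were used for 25 of these probe sets, which cover 16 genes, and the other 24 genes had ratios alone. The cells were HCT116, a long-established line from a human colon cancer, transfected in 4 ways with 1 array each: with pcDNA3.1-pri-miR663a, a plasmid carrying the primary transcript of miR663a (overexpression), with the empty plasmid pcDNA3.1 (vector), with a single-stranded RNA inhibitor of miR663a (inhibitor) and with a single-stranded scrambled RNA (scrambled RNA). The study looked for genes lowered by the microRNA and raised by its inhibitor. The labels name no clone, time or dose, and every group is the same cell line, which carries an activating mutation of the beta-catenin gene CTNNB1. The level of miR663a itself was not analysed here.

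Wnt ligands are lipid-modified secreted proteins that bind a Frizzled receptor together with LRP5 or LRP6. Without a ligand, a complex of APC, AXIN and the kinase GSK3B marks beta-catenin for breakdown, and with a ligand beta-catenin accumulates, enters the nucleus and activates genes with the TCF/LEF factors. The pathway maintains the stem cells of colon crypts, and most colon cancers keep it active, often through a loss of APC or, as in HCT116, a beta-catenin that escapes breakdown. Ligands and receptors stand above that lesion in the pathway and the target genes below it, so they are given apart. The arrays measured RNA and not protein.

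The microRNA that the plasmid encodes and the inhibitor targets is shown because both comparisons rest on it. Its mature form is 22 bases long, is encoded at chr20:26208243-26208264 on the minus strand (GRCh38.p14, RefSeq) and is printed with its seed, bases 2 to 8, in capitals.
miR-663a: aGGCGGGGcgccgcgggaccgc

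Promoter windows of SP5 and DKK1 are shown as examples of direct pathway targets, because they alone among the windows found for these 40 genes held more than 1 copy of the letters that TCF/LEF factors recognise. Each window runs from 250 bases before the RefSeq start to 50 bases from it, and the capitals mark the motifs CTTTGAA and also CTTTGAT and also CTTTGTA and also CTTTGTT, on either strand. A motif on the opposite strand is printed as its reverse complement. The windows lie at chr2:170715087-170715386 for SP5 and at chr10:52314031-52314330 for DKK1, both on the plus strand (GRCh38.p14, RefSeq).
SP5: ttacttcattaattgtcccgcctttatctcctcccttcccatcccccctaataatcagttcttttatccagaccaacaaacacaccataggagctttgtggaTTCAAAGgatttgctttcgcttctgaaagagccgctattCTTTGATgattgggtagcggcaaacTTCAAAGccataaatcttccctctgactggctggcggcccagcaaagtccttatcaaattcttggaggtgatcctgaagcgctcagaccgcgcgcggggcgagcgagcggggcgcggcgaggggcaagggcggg
DKK1: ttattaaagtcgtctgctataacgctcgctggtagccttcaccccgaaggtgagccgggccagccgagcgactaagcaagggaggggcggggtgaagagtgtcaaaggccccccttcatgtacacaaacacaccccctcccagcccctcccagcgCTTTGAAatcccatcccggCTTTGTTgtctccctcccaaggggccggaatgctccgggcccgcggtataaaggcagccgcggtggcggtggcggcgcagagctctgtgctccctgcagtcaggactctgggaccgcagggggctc

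In the SP5 window the matches began 148, 109 and 84 bases before the start, and in the DKK1 window 95 and 76 bases before it. RefSeq windows were found for 24 of the 40 genes, and 5 of these genes, or 20.8%, held at least 1 match (SP5, DKK1, TCF7, TCF7L2 and WNT3), against 16.4% of 27305 genes with a window. More than 1 match was held by 2 of the 33 windows of these genes, or 6.06%, against 1.58% of all 35116 windows. A match is a description of letters and not of binding.

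The 4 arrays had closely similar distributions, with medians over 16381 probe sets of 4.19 (overexpression), 4.12 (vector), 4.16 (inhibitor) and 4.16 (scrambled RNA) in log2 units. Of 8 colon or general epithelial markers with levels, 7 lay above the median on all arrays, with EPCAM between 12.26 and 12.63. Markers of other cell types were mixed: PTPRC lay below the median on every array, while CD79A (5.32 to 5.75) and CD3E (4.31 to 4.70) of the leukocyte list and COL1A1 (7.48 to 8.05) and PDGFRB (4.83 to 5.28) of the fibroblast list lay above it on all. Among markers above the median on both arrays compared, 2 of 6 leukocyte markers had a median difference of 0.37 log2 units with overexpression, and 3 of 6 had -0.14 with the inhibitor. Of the fibroblast markers, 3 of 5 had a median of -0.02 with overexpression, with DCN at 0.65 and COL1A1 at -0.37, and 3 of 5 had 0.23 with the inhibitor. Their part in the results was not tested. Since each group has 1 array, differences could not be checked in a replicate: no test, standard error or p-value is given for any difference, and the number of arrays limits the precision. In these bulk samples fewer expressing cells and less RNA per cell cannot be told apart. The titles of the RNA arrays contradict their other labels; the other labels are used, they match the header of the authors' deposited table, and with the titles every inhibitor difference would turn its sign.

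A gene counts in a comparison if the brightest of its probe sets with levels exceeded the median of both arrays compared. It is called if the arrays differed by at least 1.5-fold. No Wnt gene was called with overexpression, and 1 was called with the inhibitor. With overexpression 0 of 13 counted Wnt genes were higher and 0 were lower, against 0.926% and 1.65% of 5507 genes counted. That background split moved with scaling, with 51 higher and 91 lower as deposited, 28 and 145 with array medians set equal, which shifts the median of all genes to -0.12, and 52 and 60 after quantile normalization. With the inhibitor 0 of 14 counted Wnt genes were higher and 1 was lower, against 0.529% and 0.237% of 5484 genes. Of all 89 probe sets in the authors' deposited table, 0 reached 1.5-fold with overexpression, where 1.77% of 42450 probe sets were higher and 1.76% lower. With the inhibitor 1 probe set was lower by 1.5-fold and 0 were higher, against 0.714% and 0.737%.

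**Figure D1:**
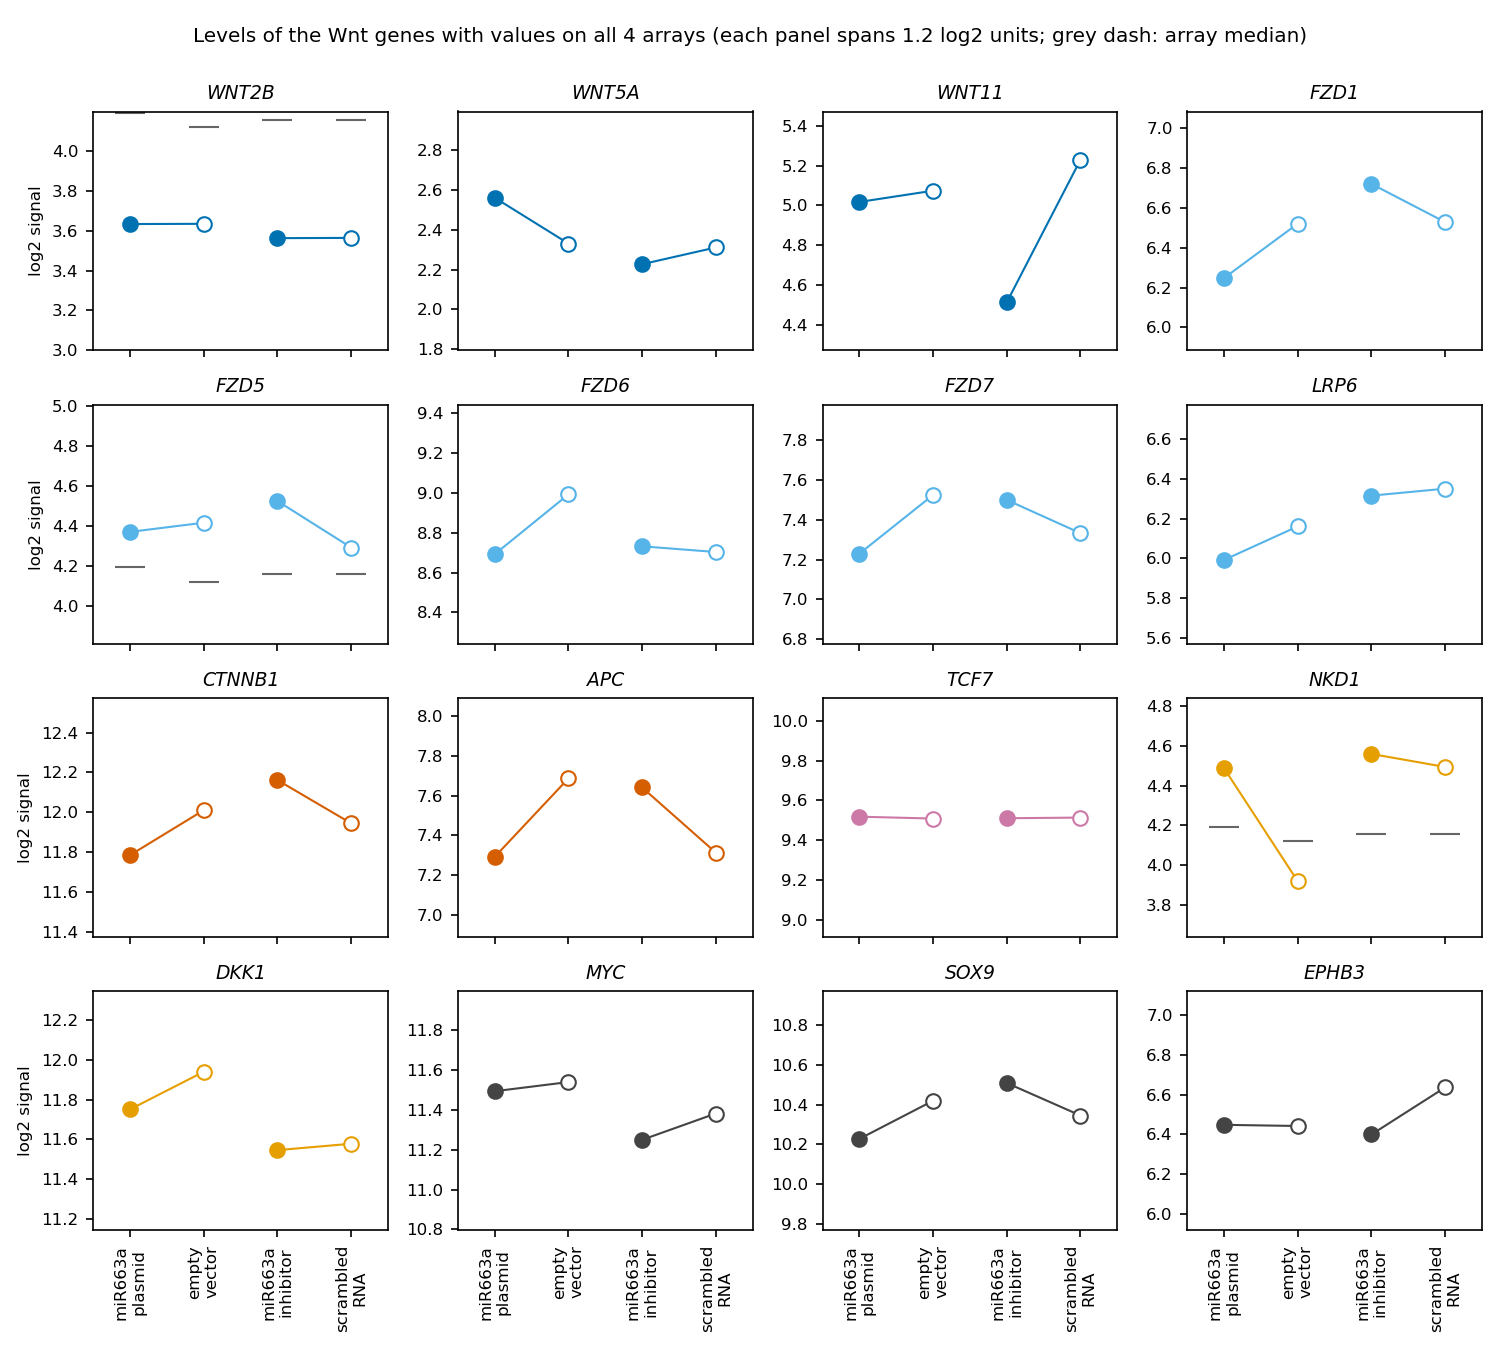
Log2 signal of the 16 Wnt genes with levels, 1 panel per gene, with 1 point per array; filled points are the miR663a plasmid and the miR663a inhibitor, open points the empty vector and the scrambled RNA, lines join the arrays of a comparison, and grey dashes mark array medians where they fall in the panel. Each vertical axis spans 1.2 log2 units; WNT11 drops on the inhibitor array, NKD1 is low on the vector array, and TCF7 stays within 0.01.

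Among the ligands, WNT11 was the called gene. WNT11, at 11q13.5, encodes a ligand best known for beta-catenin-independent signalling in cell movement. Its level was 4.51 log2 units on the inhibitor array, against 5.23 on the scrambled RNA array, and it was 5.02 on the overexpression array, against 5.07 on the vector array. The inhibitor array stood below the other 3, which lay close together. WNT11 was 1.64-fold lower with the inhibitor, the lowest but 2 of 5484 genes counted, and 1.04-fold lower with overexpression. It has 1 probe set, so no second measurement of the transcript was at hand. With an offset of 64 on the linear scale its inhibitor difference was -0.23 log2 units, against -0.72 as deposited.

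The remaining ligands were dim or measured by ratio alone. WNT5A, another ligand of beta-catenin-independent signalling, was at 2.56 on the overexpression array, against 2.33 on the vector array, and at 2.23 on the inhibitor array, against 2.31 on the scrambled RNA array. WNT2B was at 3.63, against 3.64, and at 3.56, against 3.56, on its brighter probe set. Its other probe set was at 3.65 with overexpression, against 3.45 on the vector array, and at 3.12 with the inhibitor, against 3.45 on the scrambled RNA array. Both genes lay below the array median on every array. WNT10A, which acts through beta-catenin in skin appendages, had overexpression ratios of 1.36 and 1.25 in the authors' deposited table, and its inhibitor ratios were 0.906 and 1.21. Its overexpression ratios were the highest among the ligands, and its inhibitor ratios fell on opposite sides of 1. WNT7B had an inhibitor ratio of 0.752 in the authors' deposited table, next to WNT11 among the ligands, and an overexpression ratio of 0.982. A further probe set in that table names WNT7B together with an uncharacterised locus, was not counted among the 89, and had an inhibitor ratio of 1.02.

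WNT3, a crypt ligand, had overexpression ratios of 0.886, 0.904 and 0.891 on 3 probe sets in the authors' deposited table, with inhibitor ratios of 1.08, 1.06 and 0.967 in the same order. All 3 lay below 1 with overexpression, and with the inhibitor they fell on both sides of 1. WNT1 was at 1.05 and 1.01 in the authors' deposited table, and PORCN, the acyltransferase that ligands need for secretion, at 1.13 and 0.968. Over the 8 genes of this group the median log2 ratio was 0.09 with overexpression, with 5 above 0, where 48.3% of all genes were. With the inhibitor it was -0.07, with 3 above 0, where 43.5% of all genes were.

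Of the 9 receptors and co-receptors, 5 had medians over probe sets below 0 with overexpression and 4 above, against 51.2% and 48.3% of all genes. FZD6, a Frizzled often tied to planar polarity, was at 8.69 on the overexpression array, against 8.99 on the vector array, and at 8.73 on the inhibitor array, against 8.70 on the scrambled RNA array. Here the vector array stood above the other 3, which lay close together. FZD7, a Frizzled of intestinal stem cells, was at 7.23 with overexpression, against 7.52 on the vector array, and at 7.50 with the inhibitor, against 7.33 on the scrambled RNA array. Both genes were 1.23-fold lower with overexpression, while FZD7 was 1.12-fold higher with the inhibitor. The second FZD7 probe set, almost as bright, had ratios of 0.931 with overexpression and 0.958 with the inhibitor in the authors' deposited table. It differed less with overexpression and had the opposite sign with the inhibitor.

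FZD1 gave a split answer. Its brightest probe set was at 6.25 on the overexpression array, against 6.52 on the vector array, and at 6.72 on the inhibitor array, against 6.53 on the scrambled RNA array. Its second probe set was at 4.28 with overexpression, against 3.76 on the vector array, and at 3.66 with the inhibitor, against 4.08 on the scrambled RNA array. The probe sets turned in opposite directions in both comparisons, at ratios of 0.827 and 1.44 for overexpression and 1.14 and 0.746 for the inhibitor in the authors' deposited table. No member had a larger spread between probe sets with overexpression, with a standard deviation of 0.56 log2 units.

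FZD5, a receptor of Paneth cell maturation in mice, was at 4.37 with overexpression, against 4.42 on the vector array, and at 4.52 with the inhibitor, against 4.29 on the scrambled RNA array, close to the array medians. Its second probe set had an inhibitor ratio of 0.848 in the authors' deposited table, opposite to the 1.18 of the first. FZD4, which also binds the ligand norrin, had the highest overexpression ratio of any Wnt probe set in the authors' deposited table, 1.49, with an inhibitor ratio of 1.23 on the same probe set. Its second probe set was at 1.13 and 0.901. FZD2 stood at 0.926 and 1.09 in the authors' deposited table, and the 4 probe sets of FZD3 ran from 0.928 to 1.07 with overexpression and from 0.827 to 0.938 with the inhibitor.

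The co-receptors LRP5 and LRP6, which carry the Wnt signal alongside Frizzled, differed in sign with overexpression. LRP6 was at 5.99 on the overexpression array, against 6.16 on the vector array, and at 6.32 on the inhibitor array, against 6.35 on the scrambled RNA array. Both plasmid arrays lay below both RNA arrays. All 3 LRP6 probe sets were below 1 with overexpression in the authors' deposited table, at 0.890, 0.895 and 0.787, while with the inhibitor they gave 0.976, 0.863 and 1.40 in the same order. Both LRP5 probe sets were above 1 with overexpression in the authors' deposited table, at 1.15 and 1.29, and below 1 with the inhibitor, at 0.953 and 0.734. The difference between the co-receptors was not tested. Over the 9 receptors and co-receptors the median log2 ratio was -0.02 with overexpression and -0.0025 with the inhibitor.

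The R-spondin receptors LGR4 and LGR5, of which LGR5 marks crypt stem cells, and the ubiquitin ligases RNF43 and ZNRF3, which remove Frizzled from the membrane, had ratios alone. RNF43 had log2 ratios of 0.26 with the inhibitor and -0.15 with overexpression, taken from the authors' deposited table, and ZNRF3 had 0.12 and -0.07. LGR4 had inhibitor ratios of 1.04, 1.16 and 1.13 in the authors' deposited table, and overexpression ratios of 0.737, 1.07 and 1.02. LGR5 was at 1.12 and 0.928 with the inhibitor in the authors' deposited table, and at 1.05 and 0.900 with overexpression. By the median over probe sets all 4 genes were above 0 with the inhibitor, where 43.5% of all genes were, and 3 of 4 were below 0 with overexpression, where 51.2% of all genes were.

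**Figure D2:**
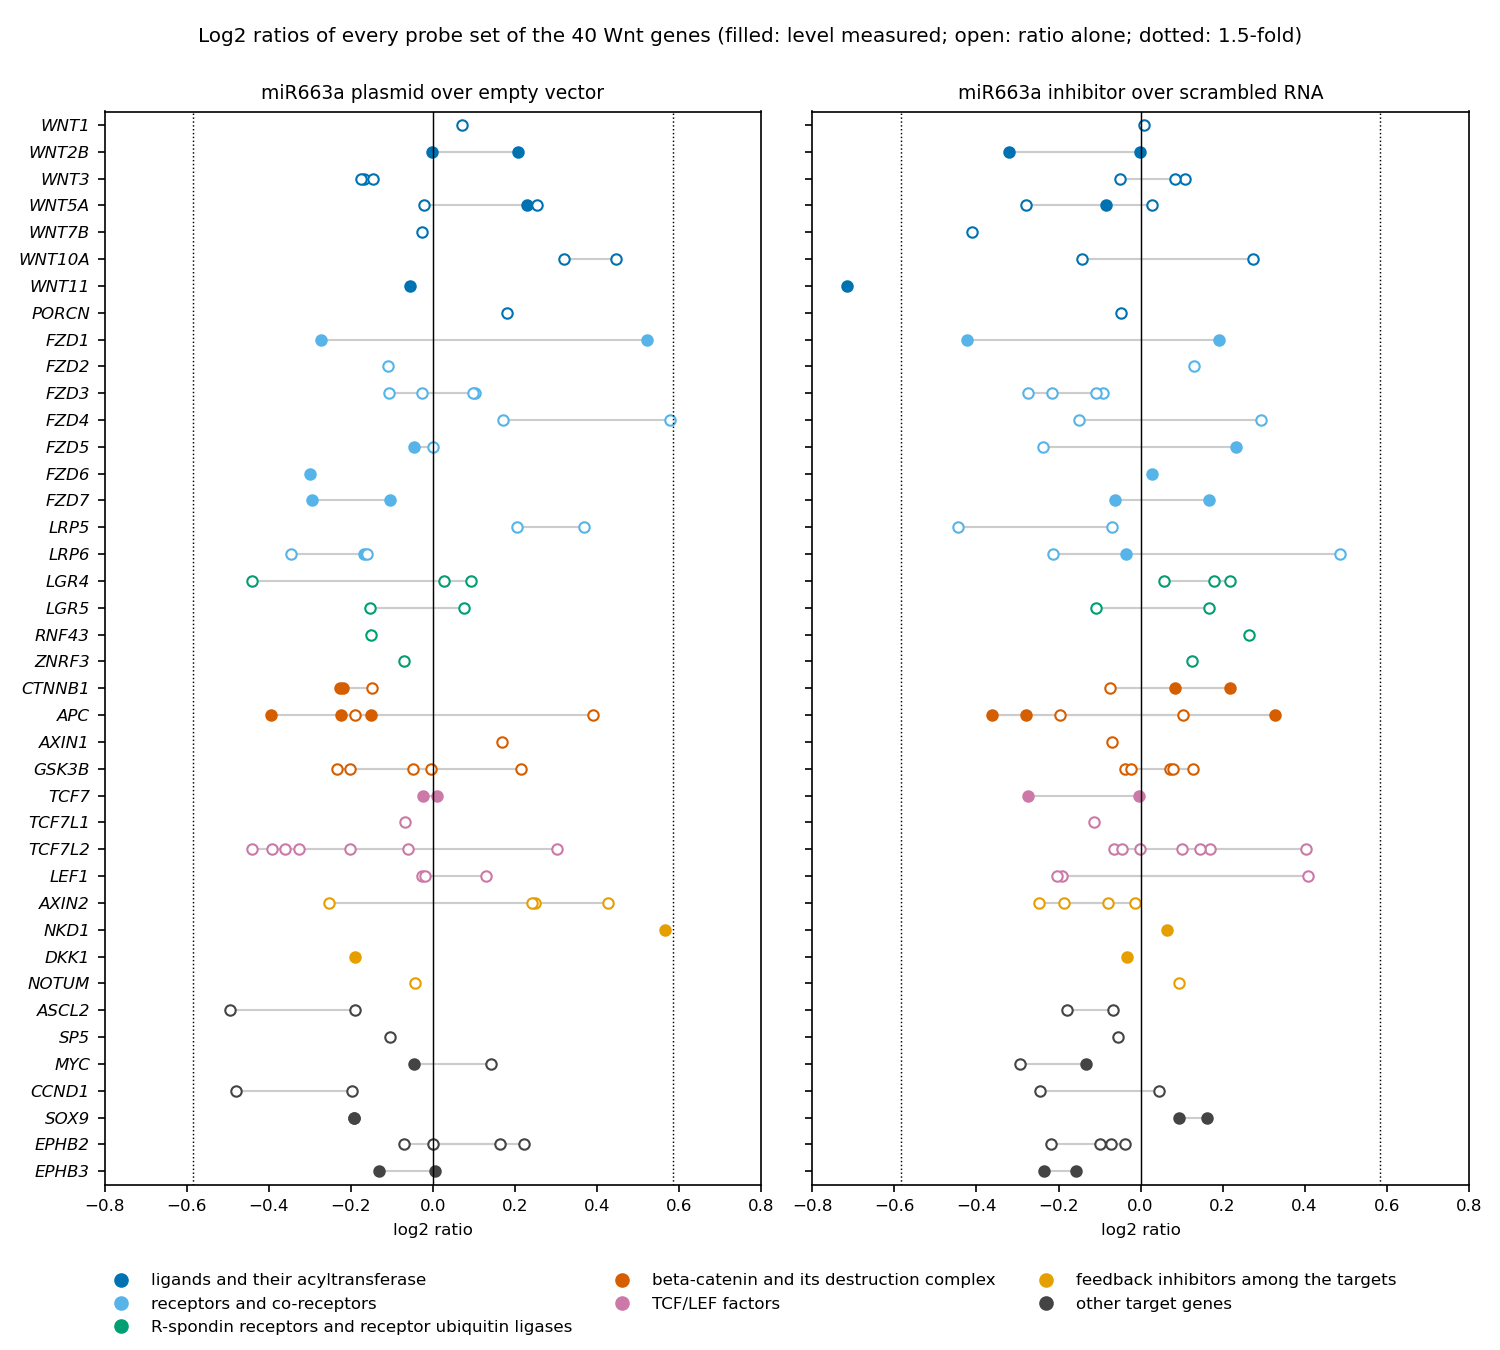
Log2 ratio of each of the 89 probe sets of the 40 Wnt genes, overexpression over vector on the left and inhibitor over scrambled RNA on the right, with genes grouped and coloured by role; filled points have levels, open points a ratio alone, grey lines join probe sets of a gene and dotted lines mark 1.5-fold. WNT11 on the right is the only point beyond a dotted line, and many genes have probe sets on both sides of 0.

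In the destruction complex, beta-catenin itself had the signs that the study looked for, at a small size. CTNNB1, at 3p21, was at 11.78 on the overexpression array, against 12.01 on the vector array, and at 12.16 on the inhibitor array, against 11.94 on the scrambled RNA array. Its highest level was on the inhibitor array and its lowest on the overexpression array. That is 1.17-fold lower with overexpression and 1.16-fold higher with the inhibitor. A second CTNNB1 probe set was at 7.66 with overexpression, against 7.88 on the vector array, and at 8.01 with the inhibitor, against 7.93 on the scrambled RNA array. The third had ratios of 0.903 and 0.950 in the authors' deposited table, so the overexpression side was lower on 3 of 3 probe sets and the inhibitor side higher on 2 of 3. Neither side reached 1.2-fold.

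APC, the scaffold of the destruction complex, showed a larger difference on the brightest of its probe sets with levels. It was at 7.29 on the overexpression array, against 7.69 on the vector array, and at 7.64 on the inhibitor array, against 7.31 on the scrambled RNA array. The vector and inhibitor arrays were high and the other pair low, which gives 1.31-fold lower with overexpression and 1.25-fold higher with the inhibitor. The other APC probe sets with levels did not share the inhibitor difference. One was at 5.13 with overexpression, against 5.35 on the vector array, and at 4.89 with the inhibitor, against 5.17 on the scrambled RNA array. The next was at 4.89, against 5.04, and at 4.63, against 4.99, in the same order. The last pair had ratios of 0.877 and 1.31 with overexpression and 1.07 and 0.872 with the inhibitor in the authors' deposited table. Over all 5 APC probe sets the median log2 ratio was -0.19 with overexpression and -0.20 with the inhibitor.

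AXIN1, a scaffold of the same complex, had an overexpression ratio of 1.12 and an inhibitor ratio of 0.953 in the authors' deposited table. GSK3B, the kinase, had 5 probe sets, with overexpression ratios from 0.850 to 1.16 and inhibitor ratios from 0.974 to 1.09 in the authors' deposited table. Among the TCF/LEF factors, TCF7L2, the main intestinal one, was lower with overexpression on 6 of 7 probe sets in the authors' deposited table, with ratios from 0.737 to 0.959 and an exception at 1.23. Its median log2 ratio was -0.33 with overexpression and 0.10 with the inhibitor. Which transcripts each probe set reads was not examined.

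TCF7, at 9.52 on the overexpression array, against 9.51 on the vector array, and at 9.51 on the inhibitor array, against 9.51 on the scrambled RNA array, varied by 0.01 log2 units in all, the least of the 16 genes with levels. The dimmer TCF7 probe set was at 5.00, against 5.02, and at 4.57, against 4.84. TCF7L1 was at 0.955 and 0.925 in the authors' deposited table. LEF1 had overexpression ratios of 0.982, 0.987 and 1.09 and inhibitor ratios of 0.875, 1.33 and 0.869 in the authors' deposited table. All 4 factors had medians below 0 with overexpression, where 51.2% of all genes did, but those of TCF7 and LEF1 were close to 0, at -0.0067 and -0.018. With the inhibitor 3 of 4 were below 0, where 55.6% of all genes were.

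Target genes fall into inhibitors that feed back on the pathway and other effectors. DKK1, a secreted blocker of LRP5 and LRP6 whose promoter is printed above, was at 11.75 on the overexpression array, against 11.94 on the vector array, and at 11.55 on the inhibitor array, against 11.58 on the scrambled RNA array. Both plasmid arrays lay above both RNA arrays, by a mean of 0.28 log2 units, more than either miR663a difference. NKD1, an inhibitor that binds Dishevelled, was at 4.49 on the overexpression array, against 3.92 on the vector array, and at 4.56 on the inhibitor array, against 4.49 on the scrambled RNA array. The vector array alone was low, below its own median, so NKD1 was not counted with overexpression, where its ratio was 1.48. A probe set shared by NKD1 and another locus had an overexpression ratio of 1.07 and an inhibitor ratio of 0.826 in the authors' deposited table.

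AXIN2, a classic target that rebuilds the destruction complex, had overexpression ratios of 1.19, 0.839, 1.18 and 1.34 on its 4 probe sets in the authors' deposited table. The authors' deposited table gave these probe sets inhibitor ratios of 0.842, 0.947, 0.879 and 0.991. They were above 1 on 3 of 4 probe sets with overexpression and below 1 on 4 of 4 with the inhibitor, the reverse of the sign seen for CTNNB1. NOTUM, a secreted enzyme that strips the lipid from Wnt ligands, was at 0.971 and 1.07 in the authors' deposited table.

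MYC, the oncogene that drives cell growth, was at 11.49 on the overexpression array, against 11.54 on the vector array, and at 11.25 on the inhibitor array, against 11.38 on the scrambled RNA array. As for DKK1, both plasmid arrays stood above both RNA arrays, by 0.20 log2 units on average. A second MYC probe set had ratios of 1.10 and 0.816 in the authors' deposited table. SOX9, a transcription factor of crypt progenitors, was at 10.23 with overexpression, against 10.42 on the vector array, and at 10.51 with the inhibitor, against 10.35 on the scrambled RNA array. The second SOX9 probe set read 10.19, against 10.38, and 10.46, against 10.37. SOX9 thus had the sign pattern of CTNNB1 on both probe sets, at 1.14-fold lower and 1.12-fold higher on the brighter one.

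CCND1, the cyclin D1 gene, had overexpression ratios of 0.717 and 0.873 in the authors' deposited table and inhibitor ratios of 0.844 and 1.03. ASCL2, a stem cell transcription factor, was at 0.710 and 0.878 with overexpression in the authors' deposited table, and at 0.884 and 0.954 with the inhibitor. Both genes were below 1 with overexpression on every probe set, and ASCL2 also with the inhibitor. EPHB3, a receptor that keeps crypt cells in position, was at 6.45 with overexpression, against 6.44 on the vector array, and at 6.40 with the inhibitor, against 6.64 on the scrambled RNA array. On its dimmer probe set EPHB3 was at 5.25, against 5.38, and at 5.17, against 5.33, lower in both comparisons. Its relative EPHB2 had 4 probe sets from 0.953 to 1.17 with overexpression and from 0.860 to 0.974 with the inhibitor in the authors' deposited table. SP5, whose promoter is printed above, was at 0.931 and 0.962 in the authors' deposited table.

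Set side by side, the genes grouped here as upstream and as targets had similar medians. Each gene was placed in only 1 group, so a receptor or receptor regulator that is also a target counts as upstream alone. The 21 ligands, receptors and receptor regulators had a median log2 ratio over probe sets of -0.02 with overexpression and 0.01 with the inhibitor. The 11 target genes had -0.06 and -0.09. All 20283 genes had -0.01 and -0.02. By the median over probe sets, 4 of 40 Wnt genes were at least 1.2-fold higher with overexpression (FZD4, LRP5, NKD1 and WNT10A), against 11.3% of all genes, and 4 of 40 were 1.2-fold lower (ASCL2, CCND1, FZD6 and TCF7L2), against 10.4%. With the inhibitor 1 of 40 was 1.2-fold higher (RNF43), against 5.58%, and 2 of 40 were lower (WNT7B and WNT11), against 7.51%. Of the 89 probe sets, 9 were 1.2-fold higher and 12 lower with overexpression, against 14.1% and 15.2%, and 7 higher and 11 lower with the inhibitor, against 9.16% and 11.6%. Of the counted genes, 0 were 1.2-fold higher and 4 lower with overexpression (APC, FZD1, FZD6 and FZD7), against 8.24% and 15.2%, and 1 higher (APC) and 1 lower (WNT11) with the inhibitor, against 7.73% and 7.53%. The 4 of 13 counted genes lower with overexpression stand above their background share, and the shares by the median of probe sets are near or below theirs. The 1.2-fold limit was chosen after the data had been seen.

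The 13 counted genes leaned to one side with overexpression. Of them 11 were below 0, against 59.6% of all genes counted, and 2 above, TCF7 and EPHB3 at 0.01, against 40.1%, with a median of -0.19 log2 units, against -0.04. In 5 equal brightness bins of all genes counted, from dimmest to brightest, the medians were 0.06, -0.01, -0.07, -0.10 and -0.07. The part of brightness in the lean of the 13 was not tested. After quantile normalization 10 of 13 were below 0, with a median of -0.10, against 45.0% and 0.02 for all genes counted; MYC turned from below to above 0, at 0.03. With array medians set equal, 13 of 13 were below 0, TCF7 and EPHB3 included, against 73.2%. Over all 40 genes by the median of their probe sets the lean was smaller, with 25 below 0, against 51.2% of all genes, 15 above, against 48.3%, and a median of -0.04. With the inhibitor 8 of 14 counted genes were above 0, against 45.1%, and 6 below, against 54.4%, and over all 40 genes 17 were above, against 43.5%, and 23 below, against 55.6%.

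**Figure D3:**
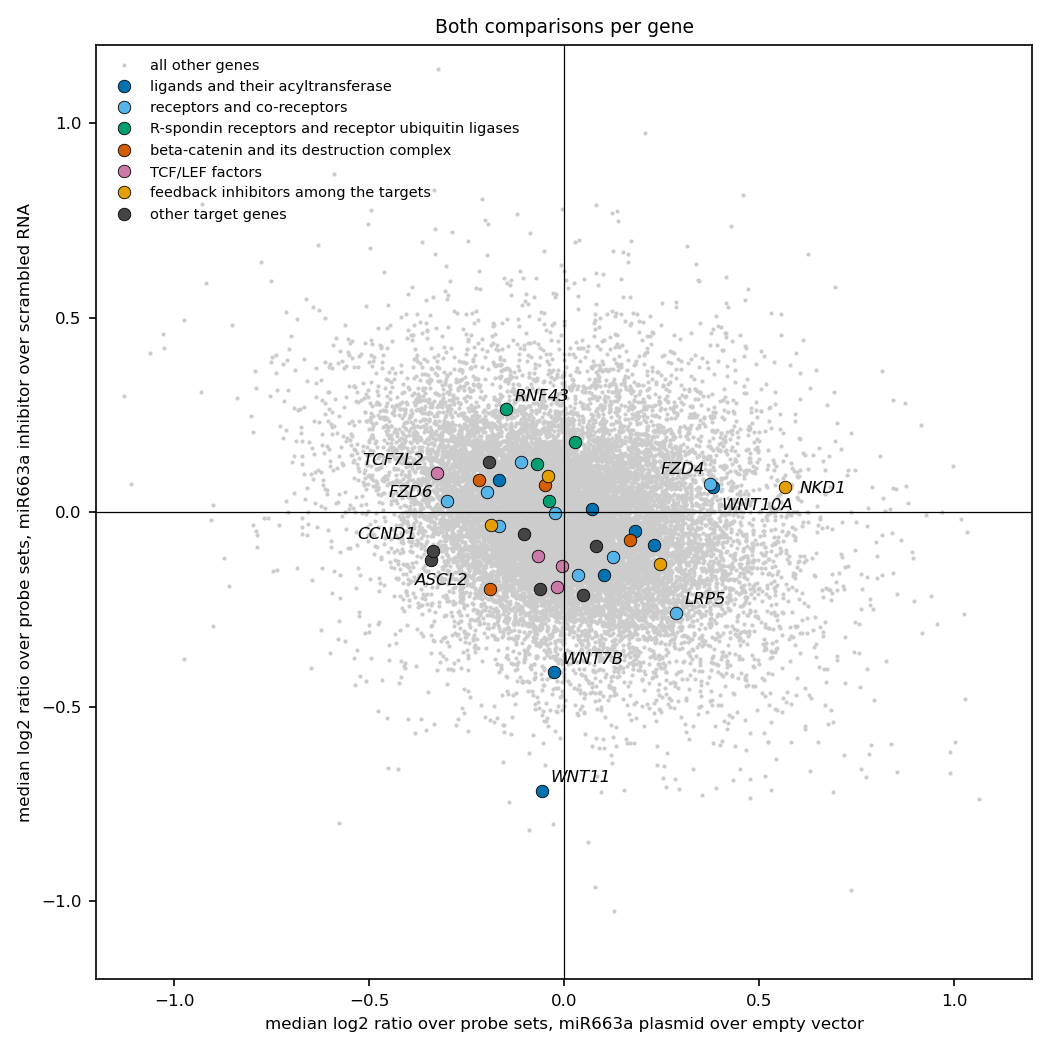
Median log2 ratio over the probe sets of a gene, overexpression over vector on the horizontal axis and inhibitor over scrambled RNA on the vertical axis, with 1 point per gene; the 40 Wnt genes are coloured by role over all other genes in grey, and those past 1.2-fold in either comparison are named. Most Wnt genes lie inside the grey cloud, with WNT11 far below 0 on the vertical axis and NKD1 far to the right.

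The selection that the study describes, lower with overexpression and higher with the inhibitor, was met in sign by 7 of the 13 Wnt genes counted in both comparisons: APC, CTNNB1, FZD1, FZD5, FZD6, FZD7 and SOX9. Of all 5388 genes counted in both, 32.8% had these signs. When every probe set was used, 12 of 40 genes had them, against 26.3% of all genes, and APC, FZD1 and FZD5 were no longer among them. Another 13 of 40 were below 0 in both, against 24.6%, 10 had the opposite signs, against 30.8%, and 5 were above 0 in both, against 16.9%. At 1.2-fold in each comparison 3 of 89 single probe sets had these signs, 1 each of APC, LRP6 and TCF7L2, or 3.37%, against 3.46% of all probe sets in the authors' deposited table. The opposite signs at 1.2-fold were seen on 2 of 89 probe sets, 1 each of FZD1 and LRP5, against 3.22%, and 2 were 1.2-fold higher in both, 1 each of FZD4 and WNT10A, against 1.01%. None was 1.2-fold lower in both, against 1.01%. The comparisons share no array.

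Probe sets of a Wnt gene often differed in sign. Of the 26 genes with 2 or more probe sets, 16 had probe sets on both sides of 0 with overexpression, against 56% of 10721 such genes, and 15 with the inhibitor, against 62.5%. The standard deviation across probe sets of a gene had a median of 0.14 log2 units with overexpression and 0.16 with the inhibitor, against 0.18 and 0.16 for all such genes.

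The authors' deposited table also allows the size, without direction, of the difference between both plasmid arrays and both RNA arrays, since its score column sums, over the 4 arrays, the squared distance of each log2 value to their mean. For 23 of 89 Wnt probe sets that size exceeded both miR663a differences, against 25.1% of all probe sets. It was largest for an LGR4 probe set at 0.54 log2 units, then for AXIN2 at 0.49, TCF7L2 at 0.46 and WNT10A at 0.44. None of the 89 reached 1.5-fold, where 0.956% of all probe sets did. The means over 2 arrays vary less than single arrays, so these sizes and the miR663a differences are not on an equal footing.

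**Figure D4:**
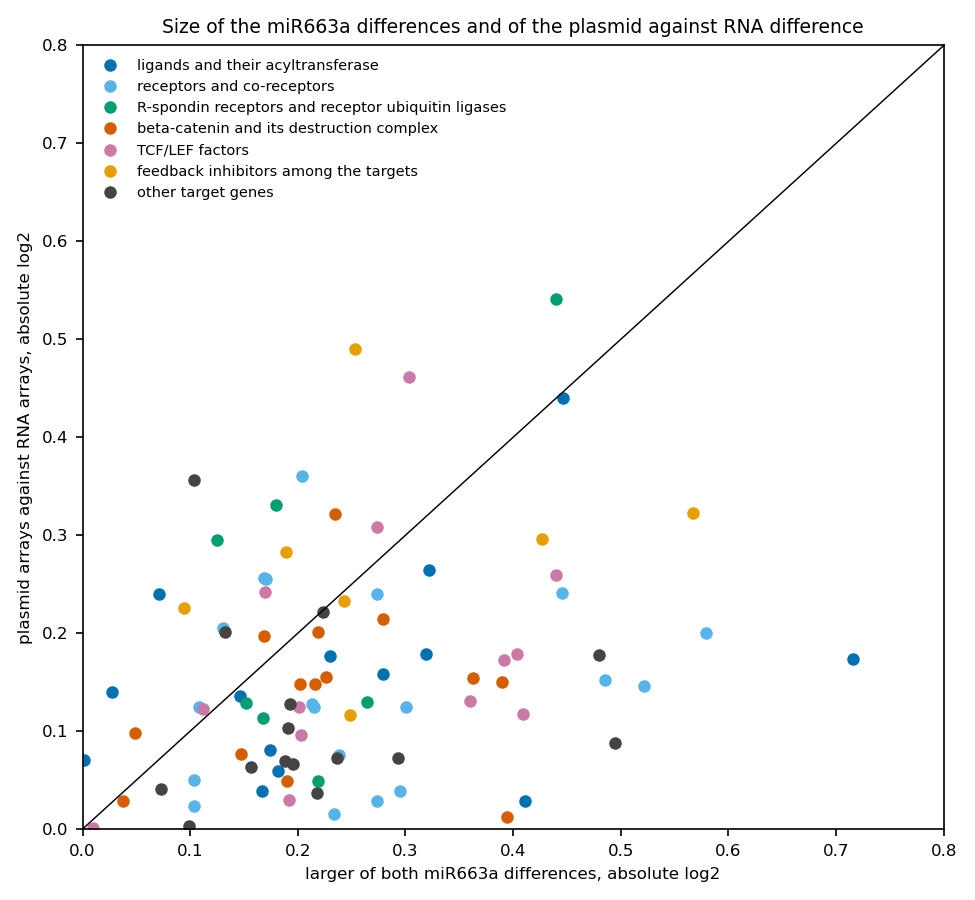
Absolute log2 difference between the mean of both plasmid arrays and the mean of both RNA arrays on the vertical axis, against the larger of both miR663a differences on the horizontal axis, with 1 point for each of the 89 Wnt probe sets, coloured by role, and a line of equal size. Above the line lie 23 points, the highest an LGR4 probe set at 0.54, and WNT11 lies farthest right at 0.72.

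Of 86 other pathway genes listed, 84 had ratios and 44 had levels. With overexpression 0 of 31 counted were called higher and 0 lower, against background shares of 0.926% and 1.65%. With the inhibitor 0 of 30 were called higher and 0 lower, against 0.529% and 0.237%. Against background medians of -0.04 and -0.02 log2 units, the pathway genes counted had -0.11 and -0.03. Among the genes counted, the largest differences with overexpression were those of CDX1, an intestinal transcription factor, at 5.96, against 5.45 on the vector array, of EP300, an acetyltransferase that beta-catenin recruits, at 7.19, against 7.60, and of RYK, a Wnt co-receptor, at 8.84, against 9.19. Among those counted with the inhibitor they were CREBBP, the relative of EP300, at 9.25, against 8.84 on the scrambled RNA array, CDX1 at 5.59, against 5.94, and CTBP2, a corepressor, at 11.54, against 11.27. These levels are of the brightest probe set with levels. Over all probe sets the median log2 ratio with the inhibitor was -0.04 for CREBBP (4 probe sets) and -0.05 for CTBP2 (6), opposite in sign. With overexpression the medians of EP300 and RYK, -0.46 and -0.32, kept their sign. CDX1 is also on the epithelial marker list, has 1 probe set, and differed by 0.51 log2 units with overexpression and by -0.35 with the inhibitor.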

How the data were processed

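Total RNA of 4 HCT116 transfections was labelled and hybridised to Affymetrix arrays, 1 per group. The authors deposited log2 values for 16381 probe sets on each array and a table with linear ratios of both comparisons and a score for 42450 probe sets. The submitters' processing notes name MAS5. Background correction, array scaling and the build of the deposited positions were not given in the sources used here. The 12704 shared probe sets gave log2 ratios within 9.87e-05 of the level differences, and the authors' deposited score equalled the summed squared distances of the log2 values to their mean. Groups come from the genotype labels.

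Probe sets were named by the gene symbol of the authors' deposited table, and all 89 kept that name through RefSeq accessions. Those naming several genes were left out. Where levels exist, the brightest of the probe sets with levels, by its mean over the arrays, represents a gene. With 1 array per group nothing was tested; each difference is that of 2 log2 values. Members and lists were chosen with earlier results of these data known, and the 1.2-fold limit, the sign counts and the plasmid against RNA sizes after the values were seen. All 40 members are named. Of other pathway genes, those counted and past 1.5-fold and the 3 largest differences per comparison are named. On simulated data with 8161 genes counted and 200 changed, 195 were recovered. The filter on dim genes removed 5, and 0 were called falsely. These counts check the calculation alone. The rate of false calls on the deposited arrays was not tested. Python 3.11.15, numpy 2.4.6, pandas 2.3.3 and matplotlib 3.10.9 were used. Alternatives were other normalizations, filters, thresholds, probe set summaries and names, and the turned RNA labels.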

Additional observations from a re-analysis of the deposited data

How the results depend on the processing

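No paired analysis was possible because each group has 1 array, and for the same reason no array could be left out. With 59 alternative values for 6 results, 48 stayed close to the value reported: a count equal to it or within 1.5 times, or a median with the same sign that moved by under 0.1 log2 units. Some of the 48 could not have moved. A count of 0 stays 0 at 2-fold, above the 75th percentile or with the offset. The RNA arrays had equal medians, so centring left the inhibitor results as they were, and RefSeq naming left every member's name as it was. The call of WNT11 as lower with the inhibitor was absent in 4 settings: 0 Wnt genes were lower above the 75th percentile of each array, with the offset of 64, at 2-fold, and with the RNA arrays grouped by their titles. WNT11 lies below the stricter filter, and the offset shrinks dim differences by construction. With the titles WNT11 was higher, the 1 gene called, and the median of the counted genes was -0.047, against 0.047. That median was -0.034 when the levels of a gene's probe sets were averaged and -0.041 with the median of the authors' ratios over all probe sets, which takes in all 40 genes. With those ratios the overexpression median was -0.040, against -0.19. At 1.2-fold, chosen after the data had been seen, 4 genes were lower with overexpression (APC, FZD1, FZD6 and FZD7), against 15.2% of the genes counted. With the inhibitor 1 was higher (APC), against 7.73%. Of those 4 genes, APC alone stayed past 1.2-fold lower after quantile normalization, and FZD6 alone with the levels of a gene's probe sets averaged. Signal near the array median limits WNT11, FZD5 and NKD1, and 24 genes have no level behind their ratios.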

Other observations

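DKK4 and LGR6, of the list of other pathway genes, were singled out after their values were seen. DKK4, a secreted Wnt antagonist and pathway target, was at 3.88 log2 units on the overexpression array, against 4.39 on the vector array, and at 4.72 on the inhibitor array, against 3.98 on the scrambled RNA array. The vector and inhibitor arrays lay above their medians and the other pair below, so DKK4 was not counted in either comparison. Its ratios in the authors' deposited table were 0.705 with overexpression and 1.67 with the inhibitor. LGR6, an R-spondin receptor related to LGR5, had an inhibitor ratio of 1.55 and an overexpression ratio of 0.810 in the authors' deposited table, with no level used here. Each has 1 probe set. Of all 42450 probe sets in the authors' deposited table, 0.737% were at least 1.5-fold higher with the inhibitor.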
